A study of Homo sapiens with 16 samples.

Results

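Ketamine was given to HMC3 cells that were also exposed to estradiol (E2), and the 2 libraries labelled E2+ketamine were set against the 2 libraries labelled E2. These are 4 of the 16 RNA-seq libraries of the series, which holds 8 conditions with 2 libraries each. HMC3 is an established human microglial cell line. Cells were kept in medium with charcoal-stripped serum and then in medium without serum before treatment. The E2 group received 0.1 nM E2 for 24 h, and the E2+ketamine group received 0.1 nM E2 together with 400 nM ketamine for 24 h. The groups used beside them were vehicle, 400 nM ketamine without E2, and 0.1 nM E2 with 400 nM of a ketamine metabolite, (2R,6R)-HNK or (2S,6S)-HNK, all for 24 h. The question was how ketamine changed mRNA levels when E2 was present. The labels do not say that replicate libraries came from separate cultures, so p-values measure the spread between these libraries, which may be technical.

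Ketamine is an anaesthetic and a rapidly acting antidepressant that blocks the NMDA class of glutamate receptors, and the hydroxynorketamines (HNK) are formed from it in the body. E2 is the main estrogen and acts largely through nuclear receptors that bind DNA. Several gene programs come up below. Metallothioneins are small proteins that bind zinc, and their genes are switched on by the zinc-sensing factor MTF1. The integrated stress response raises genes of amino acid synthesis and transport through the factor ATF4. Interferon signaling runs from its receptors through JAK kinases and STAT factors to antiviral genes and to genes of antigen presentation on MHC class I.

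The 4 libraries held 62267790 and 58865355 counts with E2 and 62804472 and 62698279 counts with E2+ketamine, and each of the 4 was closest to the other library of its own group. A level is given as CPM, the counts of a gene scaled to a library of fixed size, after scaling of the libraries by edgeR's TMM method. A count of 3, taken as the lowest amount that can be told from 0, was worth 0.0481 to 0.0512 CPM in these libraries. Whether both reads of a pair were counted is not given in the sources used here, so 3 counts can be fewer than 3 fragments. The E2+ketamine libraries had lower TMM factors, 0.943 and 0.935 against 1.003 and 1.002 with E2, and fewer genes with a count, 17723 and 17690 against 17950 and 17898. Of the 21 microglial markers listed, 5 passed the filter for low counts, and C1QA, C1QB, C1QC, TYROBP, SPI1 and SALL1 had no count in any of the 4 libraries. The summed level of the 21 markers was 82.0 and 80.5 CPM with E2 and 79.0 and 75.5 CPM with E2+ketamine. The summed level of 16 markers of fibroblasts or pericytes was 9134 and 9189 CPM with E2 and 10046 and 10333 CPM with E2+ketamine. Of the 12 of these markers tested, 5 rose and none fell, against 24.8% and 25.5% of all genes tested. After the correction for GC content and length described below, 5 were higher and 3 lower, against 18.0% and 17.1% of all genes. TAGLN went from a mean of 1548 to 2400 CPM, most of the difference in the sum, and the others that rose were THY1 (log2 fold change 0.39), ACTA2 (0.54), COL1A2 (0.11) and VIM (0.11), while COL1A1, with the highest level, had -0.02 and did not pass. The sum of 8 astrocyte markers was 127 and 122 CPM with E2 and 96.6 and 101 CPM with E2+ketamine, where GJA1, which went from a mean of 111 to 85.4 CPM, and SOX9 fell (log2 fold changes -0.38 and -0.33) and ALDH1L1 rose by 0.78. The sum of 8 markers of the oligodendrocyte lineage was 244 and 246 CPM with E2 and 288 and 295 CPM with E2+ketamine, where CNP alone of the 4 tested passed, from a mean of 242 to 288 CPM. The part of these differences in the results was not tested. In bulk libraries, fewer cells that make an RNA and less of it per cell cannot be told apart.

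Most changes were small. Of 16004 genes tested, 3969 rose (24.8%) and 4082 fell (25.5%), together 50.3%, at an adjusted p under 0.05, and the middle gene had a log2 fold change of -0.02 (edgeR quasi-likelihood test on all 16 libraries, with Benjamini-Hochberg adjustment, used throughout). When an absolute log2 value of 1 or more was also asked, 94 genes rose (0.587%) and 86 fell (0.537%), together 180 (1.12%). Of these 180 genes, 147 had a mean under 1 CPM over the 4 libraries, 22 lay between 1 and 5 CPM, and 11 had at least 5 CPM. Among the 11, 10 rose and 1 fell. With DESeq2 on all libraries 107 genes passed both limits, and with a filter of at least 10 counts in every library 80 did.

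**Figure D1:**
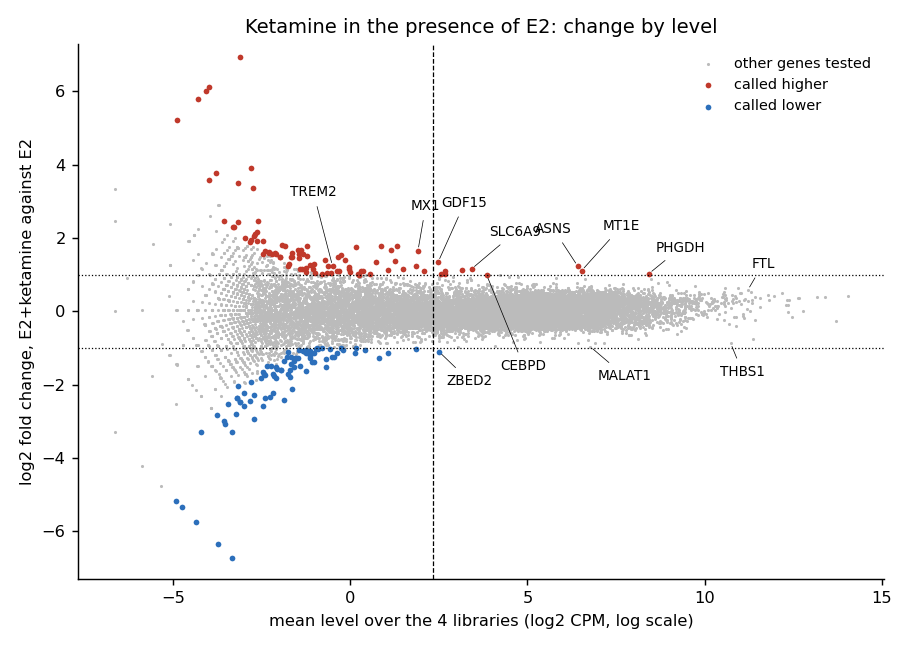
Each point is 1 of the 16004 genes tested, by its mean level over the 4 libraries (log2 CPM) and its log2 fold change in E2+ketamine against E2. Red and blue mark the 94 genes called higher and the 86 called lower, the dotted lines a log2 fold change of 1 in either direction and the dashed line 5 CPM, to the right of which only 11 called genes lie.

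The 11 genes at 5 CPM or more included secreted signals, transcription regulators, amino acid genes and metallothioneins. GDF15, a secreted stress cytokine, read 3.46 and 2.82 CPM with E2 and 7.55 and 8.48 CPM with E2+ketamine (log2 fold change 1.35, SE 0.121, adjusted p = 1.32e-13). TLE2, a transcriptional corepressor, read 4.84 and 6.34 CPM with E2 and 12.3 and 11.9 CPM with E2+ketamine (log2 fold change 1.12, SE 0.096, adjusted p = 3.51e-14). CEBPD, a transcription factor of inflammation and differentiation, read 9.32 and 9.84 CPM with E2 and 19.1 and 19.3 CPM with E2+ketamine (log2 fold change 1.0, SE 0.0762, adjusted p = 6.70e-16). EMID1, which encodes an extracellular protein, rose by 1.03 on the log2 scale (SE 0.115, adjusted p = 9.58e-11). SLC6A9, a glycine carrier, read 6.49 and 6.8 CPM with E2 and 15 and 14.7 CPM with E2+ketamine (log2 fold change 1.16, SE 0.094, adjusted p = 5.12e-15). The other rises, described with their groups, were ASNS, PHGDH, MT1E, MT1F and PSMB9. CEBPD, MT1F, EMID1 and PHGDH lay just past the limit of 1. The single fall was ZBED2, a zinc finger transcription regulator, at 7.63 and 7.85 CPM with E2 and 3.61 and 3.6 CPM with E2+ketamine (log2 fold change -1.1, SE 0.114, adjusted p = 1.24e-11).

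Most genes of the integrated stress response rose. Of the 34 members tested, 26 rose and 2 fell, with a median log2 fold change of 0.26, against shares of 24.8% and 25.5% over all genes. ASNS, which makes asparagine, lies on chromosome 7 at chr7:97480989-97501854 (GRCh37, minus strand) and read 51.3 and 50.5 CPM with E2 and 121 and 118 CPM with E2+ketamine. Both E2+ketamine libraries were far above the E2 libraries, a 2.36-fold rise (log2 fold change 1.24, SE 0.0365, adjusted p = 2.44e-31). PHGDH, the first enzyme of serine synthesis, read 225 and 228 CPM with E2 and 459 and 467 CPM with E2+ketamine (log2 fold change 1.03, SE 0.0263, adjusted p = 5.77e-34). SHMT2, which splits serine in mitochondria, rose by 0.71 (SE 0.024). CHAC1, which degrades glutathione, read 9.96 and 10.4 CPM with E2 and 19.8 and 20.6 CPM with E2+ketamine (log2 fold change 0.99, SE 0.0781, adjusted p = 2.29e-15), and PCK2, the mitochondrial PEP carboxykinase, rose by 0.87 (SE 0.0366). The genes SLC7A11 and SLC3A2, which together form the cystine and glutamate exchanger, rose by 0.76 and 0.66 (SE 0.0768 and 0.0253). The 2 members that fell, EPRS and NARS, encode tRNA synthetases. ATF4 itself rose by 0.20 (adjusted p = 4.14e-10), and its value was -0.03 after correction for GC content and length.

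The promoter of ASNS is shown because the gene had the largest rise of this group. The 250 bases before its transcription start (chr7:97872409-97872658, minus strand, RefSeq, GRCh38.p14, written in the direction of the gene) held 1 match to the C/EBP-ATF response element TGATGNAA, searched on both strands and set in capitals.
ASNS: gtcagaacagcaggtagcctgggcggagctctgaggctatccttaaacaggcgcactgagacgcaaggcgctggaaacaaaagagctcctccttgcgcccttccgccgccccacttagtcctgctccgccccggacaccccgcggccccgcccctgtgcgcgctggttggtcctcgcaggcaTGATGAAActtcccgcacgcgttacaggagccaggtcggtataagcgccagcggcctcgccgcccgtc
Such a match was found in 3.19% of 27305 promoter windows of this length, in 1.47% of the 11212 windows of tested genes and in 3 of the 22 tested members of the group that the promoter table holds, ASNS, ATF3 and CHAC1.

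Interferon-stimulated genes made the list with the highest median. Of the 48 members tested, 25 rose and 6 fell, against shares of 24.8% and 25.5% over all genes. Their median log2 fold change was 0.39. Rises of at least 1 on the log2 scale were 5 of the 48, against 0.587% of all genes. MX1, an antiviral GTPase, read 2.27 and 1.32 CPM with E2 and 5.91 and 5.51 CPM with E2+ketamine (log2 fold change 1.66, SE 0.171, adjusted p = 9.83e-12). OAS3, which makes the oligoadenylate messenger that activates RNase L, read 13.1 and 11.6 CPM with E2 and 23.7 and 25.6 CPM with E2+ketamine (log2 fold change 0.99, SE 0.0718, adjusted p = 1.07e-16). ISG15, a ubiquitin-like protein, rose by 0.92 (SE 0.0469), and IFITM1, a membrane protein that restricts virus entry, read 1.76 and 1.71 CPM with E2 and 4.48 and 3.22 CPM with E2+ketamine (log2 fold change 1.15, SE 0.275, adjusted p = 4.00e-04). In all 4 genes the groups did not overlap, which also holds for 71.8% of all genes tested (34.5% above and 37.3% below). Among the 6 members that fell were SLFN11, EIF2AK2, IFIT5, SP100 and ADAR, with log2 fold changes from -0.69 to -0.14. SLFN11 acts on stalled replication, and EIF2AK2 and ADAR act on double-stranded RNA.

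Most MHC class I genes rose. Of the 21 members tested, 17 rose, against 24.8% of all genes. The median log2 fold change was 0.37, and the lowest value among the 4 that did not pass was 0.09. PSMB9, a subunit of the immunoproteasome, read 4.07 and 3.99 CPM with E2 and 8.44 and 8.85 CPM with E2+ketamine (log2 fold change 1.1, SE 0.116, adjusted p = 1.77e-11), and PSMB8, another subunit, rose by 0.66 (SE 0.0636). TAP1, which carries peptides into the endoplasmic reticulum, read 26.9 and 26.3 CPM with E2 and 42.8 and 46.3 CPM with E2+ketamine (log2 fold change 0.75, SE 0.0599, adjusted p = 3.84e-15). NLRC5, the activator of MHC class I transcription, rose by 0.63 (SE 0.102). The heavy chain gene HLA-B and the light chain gene B2M rose by 0.44 and 0.24 (SE 0.0291 and 0.0286). The HLA genes have near-identical copies, so their split of reads is uncertain. PSMB8, PSMB9 and TAP1 are also on the interferon list.

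The promoters of OAS3 and TAP1 are shown as one for each group, and both are genes with a match. MX1 and PSMB9, which rose more, were either without a match or without a window. The 250 bases before the start of OAS3 (chr12:112938224-112938473, plus strand) and of TAP1 (chr6:32853705-32853954, minus strand) were searched on both strands for the interferon-stimulated response element core, which is GAAA, any pair of bases, and GAAA again, set in capitals (RefSeq, GRCh38.p14, in the direction of each gene).
OAS3: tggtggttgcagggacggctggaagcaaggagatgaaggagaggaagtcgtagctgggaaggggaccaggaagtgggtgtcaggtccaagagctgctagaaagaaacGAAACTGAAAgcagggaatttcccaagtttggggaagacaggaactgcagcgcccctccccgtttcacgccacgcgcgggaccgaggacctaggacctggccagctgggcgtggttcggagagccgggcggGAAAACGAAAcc
TAP1: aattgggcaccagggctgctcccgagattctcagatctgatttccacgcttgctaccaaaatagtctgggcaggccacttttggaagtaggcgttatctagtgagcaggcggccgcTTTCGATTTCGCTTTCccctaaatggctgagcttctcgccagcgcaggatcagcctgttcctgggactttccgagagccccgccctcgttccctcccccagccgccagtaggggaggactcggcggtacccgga
Each held 2 matches, those of TAP1 overlapping and on the other strand. The element was found in 3.07% of the 27305 windows, in 2.39% of the 11212 windows of tested genes, in 19 of the 36 tested interferon-stimulated genes with a window and in 7 of the 18 MHC class I genes with a window.

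The metallothionein genes MT1E, MT1F, MT1X and MT2A responded to ketamine in opposite directions with and without E2. MT1E, on chromosome 16 at chr16:56659387-56661024 (GRCh37, plus strand), read 59.4 and 57.6 CPM with E2 and 128 and 125 CPM with E2+ketamine (log2 fold change 1.11, SE 0.0402, adjusted p = 5.31e-28). Without E2 the same gene read 77 and 73.6 CPM with vehicle and 50.6 and 53.6 CPM with ketamine alone, a log2 fold change of -0.53 (adjusted p = 2.79e-16). The difference between these effects, called the interaction, was 1.65 (SE 0.0571, adjusted p = 3.54e-28). MT2A, the most abundant metallothionein here, read 296 and 309.8 CPM with E2 and 505 and 540.2 CPM with E2+ketamine (log2 fold change 0.79, SE 0.0278, adjusted p = 2.55e-28), and 307 and 293 CPM with vehicle and 273 and 278 CPM with ketamine alone (log2 fold change -0.12, adjusted p = 1.48e-04). MT1F and MT1X rose by 1.02 and 0.91 with E2 (SE 0.117 and 0.0985) and fell by 0.47 and 0.40 without it. MT1L, a related pseudogene, rose by 0.51 with E2 (SE 0.0602) and had -0.08 without it (adjusted p = 0.247). MT1A, MT1G and MT3 stayed under 1 CPM. SLC30A1, the exporter of zinc at the cell surface, read 9 and 7.44 CPM with E2 and 12.7 and 12.9 CPM with E2+ketamine (log2 fold change 0.63, SE 0.0962, adjusted p = 1.85e-07). Without E2 it read 13.4 and 13.3 CPM with vehicle and 5.45 and 5.1 CPM with ketamine alone, a log2 fold change of -1.34. Its interaction of 1.97 (SE 0.137, adjusted p = 1.10e-16) was the largest positive one among genes with a mean of at least 5 CPM over the 8 libraries. With E2+ketamine the level of SLC30A1 was just below that with vehicle, whereas MT1E and MT2A lay above the vehicle, ketamine and E2 libraries.

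The wider list of zinc genes was divided. Of the 26 genes of metallothioneins and zinc transport tested, 9 rose (34.6%) and 6 fell (23.1%), against 24.8% and 25.5% of all genes. SLC39A10, an importer, read 25.2 and 25.7 CPM with E2 and 17.4 and 16.5 CPM with E2+ketamine (log2 fold change -0.58, SE 0.0598, adjusted p = 8.50e-12), with an interaction of -0.72. MTF1 fell by 0.19 (adjusted p = 0.00817; -0.14 and not past the test without E2 replicate 2) and had a value of -0.05 after correction for GC content and length (adjusted p = 0.554). Metallothionein genes are similar in sequence, and reads shared between copies were not counted by the authors' rule of unique alignment.

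The promoters of MT1X, MT2A and SLC30A1 are shown because these zinc genes changed direction between the contrasts. The windows lie at chr16:56682220-56682469, plus strand, at chr16:56608334-56608583, plus strand and at chr1:211579162-211579411, minus strand (RefSeq, GRCh38.p14, in the direction of each gene). Capitals mark the core of the metal response element, TGCACNC or TGCGCNC on either strand.
MT1X: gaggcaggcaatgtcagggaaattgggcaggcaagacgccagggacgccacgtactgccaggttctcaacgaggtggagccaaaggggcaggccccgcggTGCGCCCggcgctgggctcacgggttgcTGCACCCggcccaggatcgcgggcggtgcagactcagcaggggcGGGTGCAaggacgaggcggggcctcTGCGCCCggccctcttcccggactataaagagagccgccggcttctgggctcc
MT2A: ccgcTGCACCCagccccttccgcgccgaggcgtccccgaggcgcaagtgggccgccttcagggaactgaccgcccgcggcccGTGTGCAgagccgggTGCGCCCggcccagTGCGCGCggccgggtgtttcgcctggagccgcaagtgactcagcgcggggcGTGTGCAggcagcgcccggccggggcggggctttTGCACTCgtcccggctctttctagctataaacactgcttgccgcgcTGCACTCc
SLC30A1: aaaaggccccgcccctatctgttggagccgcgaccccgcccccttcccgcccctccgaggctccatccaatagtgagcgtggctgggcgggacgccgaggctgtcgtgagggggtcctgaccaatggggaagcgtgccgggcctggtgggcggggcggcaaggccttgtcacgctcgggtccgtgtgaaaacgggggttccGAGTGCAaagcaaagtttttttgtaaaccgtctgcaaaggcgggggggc
They held 4, 7 and 1 matches. This short core was found in 24.7% of all 27305 windows, in 32.8% of the 11212 windows of tested genes, and in 7 of the 18 tested genes of metallothioneins and zinc transport that have a window.

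**Figure D2:**
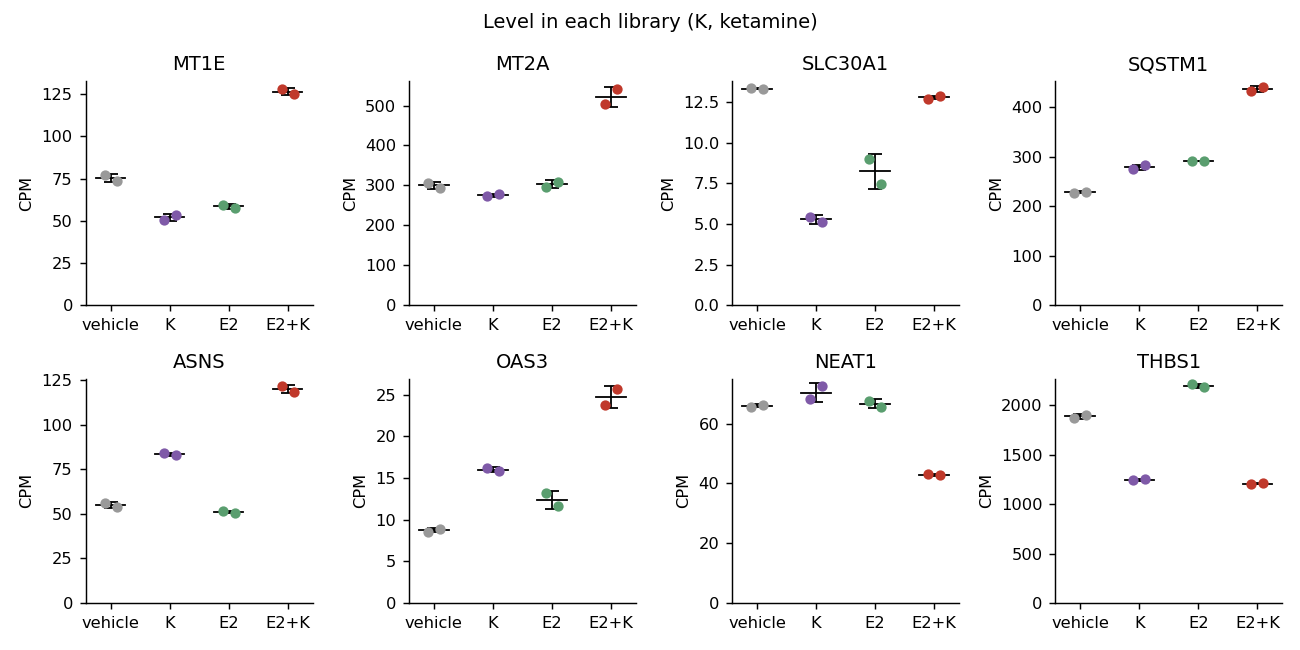
Level (CPM, linear axis from 0) of 8 genes in each of the 2 libraries with vehicle, ketamine (K), E2 and E2+ketamine (E2+K). Points are libraries, wide bars their mean and whiskers the SD. MT1E, MT2A and SLC30A1 are lower with ketamine than with vehicle but higher with E2+ketamine than with E2, and NEAT1 is lowest with E2+ketamine.

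Antioxidant genes were divided. Of the 24 targets of the antioxidant factor NRF2 tested, 10 rose (41.7%) and 6 fell (25%), against 24.8% and 25.5% of all genes. Their median log2 fold change was 0.07. FTL, the ferritin light chain, read 1903 and 1919 CPM with E2 and 2867 and 2846 CPM with E2+ketamine (log2 fold change 0.58, SE 0.0198, adjusted p = 6.61e-29), and SQSTM1, an autophagy receptor, read 291 and 291 CPM with E2 and 432 and 440.0 CPM with E2+ketamine (log2 fold change 0.58, SE 0.0253, adjusted p = 6.67e-25). HMOX1, which breaks down heme, rose by 0.71 (SE 0.0699) and NQO1, a quinone reductase, by 0.50 (SE 0.0346). Among the 6 that fell were the thioredoxin gene TXN and GCLC, the catalytic subunit of glutathione synthesis.

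Ribosomal and respiratory chain genes mostly rose, by small amounts. Over all genes 24.8% rose and 25.5% fell, and the uncorrected counts of this paragraph are to be read against these shares. Of the 76 cytosolic ribosomal protein genes tested, 58 rose and 9 fell, with a median log2 fold change of 0.26. RPS2 read 3823 and 3905 CPM with E2 and 5431 and 5480.4 CPM with E2+ketamine (log2 fold change 0.50, SE 0.0183, adjusted p = 1.21e-27), and RPL10 rose by 0.50 (SE 0.0187). Of the 71 nuclear genes of respiratory chain subunits tested, 47 rose and 10 fell, with a median log2 fold change of 0.16, and the complex I genes NDUFA11, NDUFS8, NDUFS7 and NDUFB7 rose by 0.61, 0.61, 0.57 and 0.54 (SE 0.0308 to 0.0392). RPL10 shares part of its exons with DNASE1L1 on the other strand. Ribosomal protein genes have many processed pseudogenes, so reads that match both were not counted. EIF4EBP1, a repressor of translation that mTOR inactivates, read 155 and 155 CPM with E2 and 257 and 264 CPM with E2+ketamine (log2 fold change 0.75, SE 0.03, adjusted p = 3.37e-26). Glycolysis genes followed with 17 of 34 members higher and 8 lower, where ALDOA and PFKL rose by 0.44 and 0.50 (SE 0.0202 and 0.0261). With the correction for GC content and length described below, 19 glycolysis genes were higher and 6 lower, against 18.0% and 17.1% of all genes.

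Matrix genes were among those that fell. THBS1, thrombospondin, an extracellular glycoprotein and a target of YAP and TGF-beta, read 2214 and 2185 CPM with E2 and 1203 and 1210.0 CPM with E2+ketamine, a fold of 0.549 (log2 fold change -0.87, SE 0.0195, adjusted p = 3.13e-36). In the same list of contractile and matrix genes TAGLN, an actin-binding protein of smooth muscle, moved the other way, at 1538 and 1558 CPM with E2 and 2404 and 2396 CPM with E2+ketamine (log2 fold change 0.63, SE 0.0195, adjusted p = 9.72e-31), as did ACTG2, a smooth muscle actin, at 0.60 (SE 0.0633). Part of TAGLN's exons is shared with PCSK7 on the other strand. That list had 15 rises and 10 falls among 30 genes, against 24.8% and 25.5% of all genes. Of the 26 collagen genes tested, 3 rose (11.5%) and 10 fell (38.5%), against the same shares. Their median log2 fold change was -0.13. COL8A1 read 289 and 285 CPM with E2 and 185 and 178 CPM with E2+ketamine (log2 fold change -0.66, SE 0.0261, adjusted p = 2.30e-26), and COL4A1, a basement membrane chain, fell by 0.52 (SE 0.0227). COL7A1, the anchoring fibril chain, fell by 0.39 with E2 and rose by 0.47 without it (interaction adjusted p = 5.54e-17). ADAMTS1, a matrix protease, fell by 0.60 (SE 0.0261).

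Several sterol synthesis genes fell. HMGCS1, which makes HMG-CoA, read 132 and 134 CPM with E2 and 77.4 and 77.8 CPM with E2+ketamine (log2 fold change -0.78, SE 0.0322, adjusted p = 9.07e-26). ACACA, which starts fatty acid synthesis, and CYP51A1, of the sterol branch, fell by 0.57 and 0.46 (SE 0.0302 and 0.0344). INSIG1, the sterol sensor partner, fell by 0.46 with E2 and rose by 0.35 without it (interaction adjusted p = 1.27e-24). The list as a whole was divided, with 10 rises and 13 falls among 33 genes, against 24.8% and 25.5% of all genes. Its median log2 fold change was -0.02. That sign turned under 2 other scalings, at 0.0037 with DESeq2 and 0.0046 with relative log expression.

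MALAT1, a nuclear long noncoding RNA of speckles, read 159.6 and 128 CPM with E2 and 80.4 and 67.6 CPM with E2+ketamine (log2 fold change -0.96, SE 0.0866, adjusted p = 1.87e-13). NEAT1, the scaffold RNA of paraspeckles, read 67.7 and 65.6 CPM with E2 and 43.2 and 42.7 CPM with E2+ketamine (log2 fold change -0.63, SE 0.0436, adjusted p = 2.02e-17). Without E2, NEAT1 read 65.6 and 66.3 CPM with vehicle and 68.2 and 72.6 CPM with ketamine alone (log2 fold change 0.09, adjusted p = 0.0454), and the interaction was -0.73 (SE 0.0598, adjusted p = 3.13e-14). KCNQ1OT1, an imprinted antisense RNA, fell by 0.77 and TUG1 by 0.44 (SE 0.0556 and 0.0326). Of the 26 long noncoding RNAs tested, 2 rose and 10 fell, against 24.8% and 25.5% of all genes. With that correction 5 were higher and 8 lower, against 18.0% and 17.1% of all genes. Reads of KCNQ1OT1 and of KCNQ1, and of MALAT1 and its antisense partner, cannot be told apart where the counting used no strand, which the sources used here do not give.

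Of the 38 splicing regulators of the SR and hnRNP families tested, 1 rose and 30 fell, against 24.8% and 25.5% of all genes. Their median log2 fold change was -0.30. The other counts of rises and falls in this paragraph are to be read against the same shares. HNRNPA2B1 read 373 and 372 CPM with E2 and 269 and 267 CPM with E2+ketamine (log2 fold change -0.47, SE 0.0234, adjusted p = 1.01e-22). TRA2A, HNRNPR and PTBP2 fell by 0.46, 0.46 and 0.56 (SE 0.0685, 0.0334 and 0.123). More genes of mitosis fell than rose, with 8 rises and 24 falls among 41. After the same correction 16 of the mitosis genes were higher and 11 lower, against 18.0% and 17.1% of all genes. MKI67, the proliferation antigen, read 305 and 309.6 CPM with E2 and 242 and 239.5 CPM with E2+ketamine (log2 fold change -0.35, SE 0.0253, adjusted p = 1.11e-16), while AURKB, the kinase of the chromosomal passenger complex, and CDC20, an activator of the anaphase-promoting complex, rose by 0.39 and 0.33 (SE 0.03 and 0.0258). Of 23 cytosolic heat shock genes 5 rose (21.7%) and 9 fell (39.1%). The chaperones HSP90AA1, HSPD1 and DNAJA1 fell by 0.44, 0.40 and 0.38 (SE 0.022, 0.0245 and 0.0318). In the endoplasmic reticulum list, 10 of 22 genes rose and 7 fell. CALR, a lectin chaperone, read 1235 and 1233 CPM with E2 and 1636 and 1623 CPM with E2+ketamine (log2 fold change 0.40, SE 0.0202, adjusted p = 2.33e-22).

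The size of a change followed the GC content of the gene. In 5 equal groups of genes from low to high GC, the median log2 fold change was -0.22, -0.19, -0.04, 0.17 and 0.27. Across 15358 genes, which are not independent replicates, Spearman's rho with GC content was 0.533. Removal of the GC and exon length trend from each library took the 5 medians to between -0.0178 and 0.0102 and left 2880 genes higher (18.0%) and 2734 lower (17.1%). It removes any trend with GC content, whether of the cells or of the libraries, and these cannot be told apart here.

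**Figure D3:**
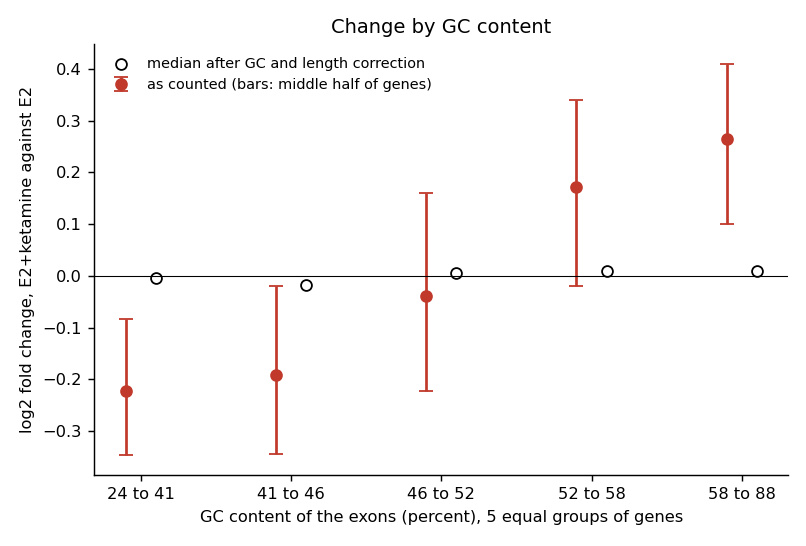
Log2 fold change in E2+ketamine against E2 in 5 equal groups of genes by the GC content of their exons (percent). Filled points are medians with bars over the interquartile range, rising from -0.22 to 0.27, and open points are medians after correction for GC content and length, close to 0.

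Counts after this correction are to be read against 18.0% of all genes higher and 17.1% lower. The interferon list then had 27 higher and 2 lower with a median of 0.30, and MHC class I 16 higher with a median of 0.25. The integrated stress response had 22 higher and 2 lower with a median of 0.21. Ribosomal proteins had 62 higher and 6 lower with a median of 0.19, and respiratory chain genes 48 higher and 3 lower with a median of 0.18. Collagens had 2 higher and 12 lower with a median of -0.20, and splicing regulators 2 higher and 21 lower with a median of -0.13. The median of mitosis genes turned from -0.11 to 0.04, with 16 higher and 11 lower. The medians of histone, NF-kB, immediate early, estrogen and glutamate receptor lists also turned from above 0 to below it, and that of long noncoding RNAs reached 0.00044. Of the genes named for a change of at least 1 with 5 CPM or more, GDF15, ASNS, PSMB9 and ZBED2 were still past that limit at 1.08, 1.4, 1.17 and -1.09. The others fell under it, with SLC6A9 at 0.91, TLE2 at 0.84, MT1E at 0.86, MT1F at 0.78, EMID1 at 0.78, CEBPD at 0.69 and PHGDH at 0.997, each past the test. Corrected values were 1.73 for MX1, 1.09 for OAS3, -0.70 for THBS1, -0.74 for MALAT1 and -0.42 for NEAT1. In the endoplasmic reticulum list 12 genes were higher with a median of 0.11 and the 7 falls no longer passed, in the cytosolic heat shock list 1 was higher and 11 were lower, and in the cholesterol list 7 were higher and 18 lower with a median of -0.13.

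Other genes named here also moved by over 1.5 times with the correction, most of them to a smaller value. Log2 fold changes were then 0.25 for RPS2, 0.48 for EIF4EBP1, 0.35 for NDUFA11, 0.37 for NDUFS8, 0.34 for NDUFS7, 0.28 for NDUFB7, 0.23 for ALDOA and 0.26 for PFKL, all still past the test. Cell cycle genes gave 0.19 for AURKB, 0.08 for CDC20, 0.16 for TK1, -0.23 for RRM1 and 0.34 for CDKN1A, each past the test. Chaperone, antioxidant and sterol genes gave 0.21 for CALR, -0.21 for HSPD1, -0.22 for DNAJA1, 0.38 for FTL, 0.46 for HMOX1 and -0.28 for CYP51A1. RNA genes and splicing regulators gave -0.23 for HNRNPA2B1, -0.22 for HNRNPR, -0.29 for TRA2A, -0.31 for PTBP2, -0.47 for KCNQ1OT1 and -0.22 for TUG1. Signaling and transport genes gave -0.15 for JAK1, -0.26 for JAK2, -0.30 for LIFR, -0.43 for REL, 0.37 for RELB, 0.30 for NR1D1, -0.37 for SLC39A10 and 0.29 for HLA-B, of which JAK2 did not pass. The values of B2M, COL7A1, COL9A3, MEGF6 and BDNF became larger in size, at 0.41, -0.61, -0.70, -0.46 and 0.40. PER3 was at -0.26. GREB1 and YPEL1 kept values of 0.54 and 0.19 but no longer passed (adjusted p = 0.0563 and 0.0545).

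**Figure D4:**
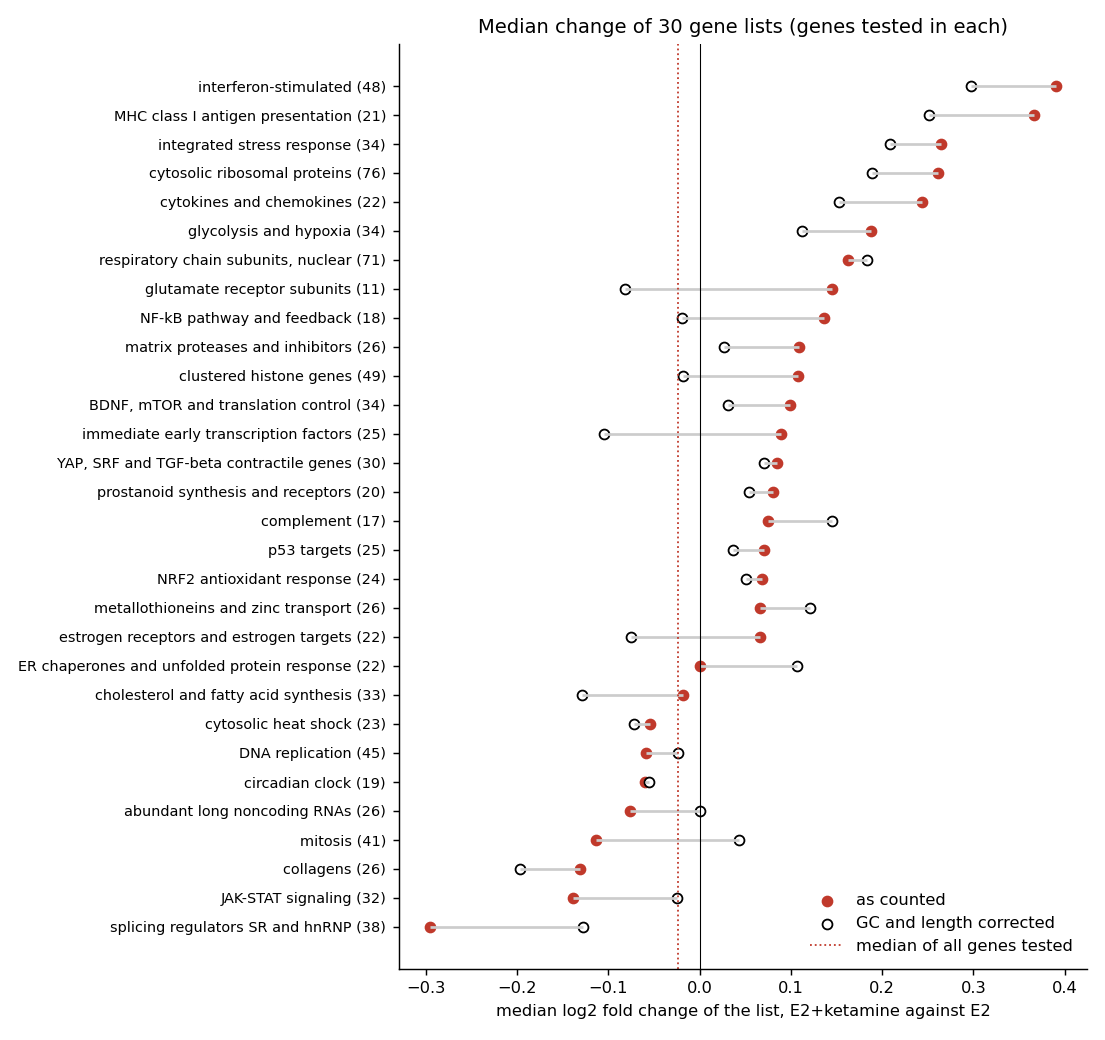
Median log2 fold change in E2+ketamine against E2 of 30 gene lists, with the number of genes tested in brackets. Filled points are values as counted, open points values after correction for GC content and exon length, and the dotted line the median of all genes tested, -0.02. The interferon-stimulated list has the highest median at 0.39 and the splicing regulators the lowest at -0.30.

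The genes that the study follows by name gave small or mixed values. STAT3, the transcription factor at the centre of the study, read 152 and 149.8 CPM with E2 and 159 and 155 CPM with E2+ketamine (log2 fold change 0.06, SE 0.029, adjusted p = 0.0694), and it passed under DESeq2 (adjusted p = 0.00759) and after the GC and length correction (log2 fold change 0.15). JAK1 and JAK2, kinases of cytokine receptors, fell by 0.26 and 0.49 (SE 0.0351 and 0.12), and JAK2 no longer passed after the correction (adjusted p = 0.0843). SOCS3, an inhibitor of JAK kinases, read 63 and 64.6 CPM with E2 and 64 and 66.4 CPM with E2+ketamine (log2 fold change 0.03, SE 0.0423, adjusted p = 0.584, 95% interval -0.05 to 0.12). After the correction SOCS3 passed as a fall, at -0.23. JAK3 and SOCS1 had log2 fold changes of 0.27 and 0.27 (adjusted p = 0.12 and 0.402). Without E2+ketamine replicate 1 JAK3 passed at 0.44, and without E2 replicate 1 SOCS1 was at -0.04. Over 32 JAK-STAT genes 7 rose (21.9%) and 13 fell (40.6%), against 24.8% and 25.5% of all genes. After the correction 5 were higher and 7 lower, against 18.0% and 17.1% of all genes. STAT5B, a cytokine-activated factor, rose by 0.53, and the receptor gene LIFR fell by 0.55. Among interferon factors IRF7 and IRF9 rose by 0.36 and 0.30 (SE 0.0489 and 0.0606), but IRF7 was at 0.05 after the correction (adjusted p = 0.376). OAS1 and MX2 rose by 1.17 and 0.83 (SE 0.282 and 0.322), both near 1 CPM. Without E2 replicate 1 the value of MX2 was 0.34 and did not pass, and without E2 replicate 2 it was 1.54. OAS2 had 0.17 (adjusted p = 0.831). C1R, a complement protease, read 7.64 and 6.7 CPM with E2 and 12.7 and 12.2 CPM with E2+ketamine (log2 fold change 0.79, SE 0.089, adjusted p = 1.04e-10). SIN3A, a scaffold of histone deacetylase complexes, fell by 0.37 (SE 0.0386), and by 0.17 after the correction.

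EEF2, which moves the ribosome along mRNA, read 4573 and 4569 CPM with E2 and 5559 and 5735 CPM with E2+ketamine (log2 fold change 0.30, SE 0.0176, adjusted p = 4.18e-20). Its value was 0.06 after the correction (adjusted p = 3.32e-05), while its kinase EEF2K had a value of 0.07 (adjusted p = 0.231). BDNF, a neurotrophin, read 24.5 and 25.9 CPM with E2 and 31.2 and 28.9 CPM with E2+ketamine (log2 fold change 0.26, SE 0.0579, adjusted p = 1.90e-04). DLG4, a postsynaptic scaffold, rose by 0.28 and had a value of 0.14 after the correction, which did not pass (adjusted p = 0.0694). SYN1 stayed under 1 CPM in each of the 4 libraries. Of 24 genes on the glutamate receptor list 11 were tested and 1 rose, against 24.8% of all genes. This was GRINA, which encodes a protein associated with NMDA receptors, at 0.32 (SE 0.0296). GRINA did not pass after the correction (0.02, adjusted p = 0.567). GRIN2A had no count in the 4 libraries. Of the estrogen list, ESR1 had at most 2 counts in a library, ESR2 had 0.593 and 0.475 CPM with E2 and 0.54 and 0.205 CPM with E2+ketamine (adjusted p = 0.36), and PGR had no count. GREB1, an estrogen target in other cells, read 1.2 and 1.17 CPM with E2 and 1.64 and 1.94 CPM with E2+ketamine (log2 fold change 0.59, adjusted p = 0.0255), and it did not pass without either E2 library, at 0.61 and 0.58, or without E2+ketamine replicate 2, at 0.46. IL6, a cytokine, read 0.881 and 0.78 CPM with E2 and 1.5 and 1.69 CPM with E2+ketamine (log2 fold change 0.94, SE 0.282, adjusted p = 0.00441). The clock genes PER2 and PER3 fell by 0.65 and 0.45 (SE 0.118 and 0.0749), with interactions of -0.91 and -0.56. TREM2, a microglial receptor chosen after its values were seen, read 0.417 and 0.424 CPM with E2 and 1.3 and 0.682 CPM with E2+ketamine (log2 fold change 1.24, SE 0.358, adjusted p = 0.00312), and without E2+ketamine replicate 1 it was 0.70 and did not pass.

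The same drug without E2 was measured in ketamine against vehicle, which shares no library with E2+ketamine against E2. There 4291 genes rose (26.8%) and 5201 fell (32.5%), together 59.3%. Both limits were passed by 570 genes (3.56%), 413 higher (2.58%) and 157 lower (0.981%), and 346 did after the GC and length correction. With upper-quartile normalization 5391 genes rose and 4302 fell, and with the GC and length correction 2843 were higher and 4958 lower. Of the 3969 genes that rose with E2, 2646 also rose without it and 344 fell, and of the 4082 that fell with E2, 3129 also fell and 212 rose. Across 16004 genes Spearman's rho between the effects was 0.506, a description of genes that share GC content and libraries, and 0.271 after the correction for GC content and length. Among the 10300 genes with a mean of at least 5 CPM, rho without that correction was 0.709. The interaction passed for 6009 genes (37.5%), 3915 with a positive sign (24.5%) and 2094 with a negative sign (13.1%). This split depended on scaling, since upper-quartile normalization gave 2755 positive and 3119 negative, with the median gene shifted by -0.0856. With an interaction of at least 1, 69 genes were positive (0.431%) and 223 negative (1.39%), 292 in all (1.82%).

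**Figure D5:**
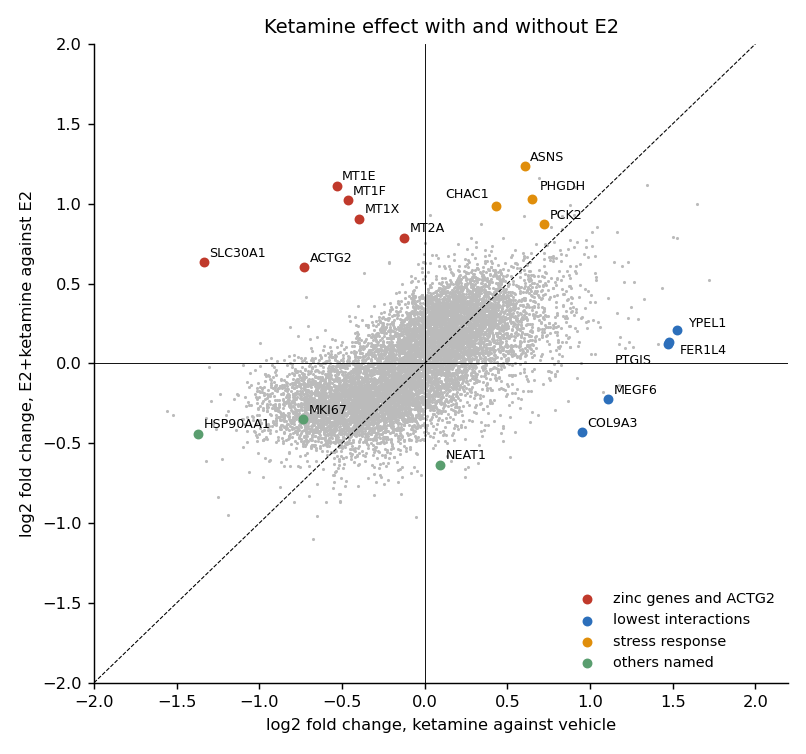
Log2 fold change in E2+ketamine against E2 (vertical) by that in ketamine against vehicle (horizontal) for 10374 genes with a mean of at least 5 CPM over the 8 libraries, with named genes coloured. On the dashed line both effects are equal. The metallothioneins, SLC30A1 and ACTG2 lie in the upper left, and PTGIS, FER1L4, MEGF6, YPEL1 and COL9A3 far to the right near or below 0.

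The 5 largest positive interactions at 5 CPM or more were SLC30A1, MT1E, MT1F, ACTG2 and MT1X, each lower with ketamine alone and higher with ketamine in E2. ACTG2 read 19.9 and 18.4 CPM with E2 and 29.7 and 28.5 CPM with E2+ketamine, and 20.9 and 24.6 CPM with vehicle and 13.7 and 13.7 CPM with ketamine alone (interaction 1.33, SE 0.0905, adjusted p = 5.47e-17). The 5 largest negative ones all rose with ketamine alone. With E2, MEGF6 and COL9A3 fell, YPEL1 rose, and PTGIS and FER1L4 did not pass. FER1L4 passed with relative log expression normalization (0.16), and its value ranged from 0.05 to 0.21 with 1 library left out. MEGF6, an EGF repeat protein, read 32.1 and 31.6 CPM with E2 and 26.4 and 28.2 CPM with E2+ketamine, and 19.2 and 20.4 CPM with vehicle and 42.4 and 43.3 CPM with ketamine alone (interaction -1.34, SE 0.0762, adjusted p = 9.37e-20). PTGIS, which makes prostacyclin, read 8.39 and 7.46 CPM with E2 and 9.24 and 8.02 CPM with E2+ketamine, and 3.74 and 3.74 CPM with vehicle and 10.9 and 9.89 CPM with ketamine alone (interaction -1.35, SE 0.148). COL9A3 rose by 0.95 without E2 and fell by 0.43 with it. FER1L4 and YPEL1 had interactions of -1.34 and -1.32 (SE 0.0937 and 0.114). YPEL1 shares exons with PPIL2 on the other strand, and its rise with E2 did not pass without E2 replicate 1 (0.18) or without either E2+ketamine library (0.22 and 0.19).

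Over all genes 24.5% of interactions passed with a positive sign and 13.1% with a negative sign. By list, interactions were 70 positive among 76 ribosomal protein genes, 60 positive among 71 respiratory chain genes, 25 positive and 1 negative among 34 stress response genes and 36 positive among 41 mitosis genes. Mitosis genes had a median of -0.62 without E2 and of -0.11 with E2, and after the GC and length correction these medians were -0.34 and 0.04. Without E2 and without that correction 1 of them was higher and 38 lower, against 26.8% and 32.5% of all genes. HSP90AA1 read 1717 and 1726 CPM with vehicle and 662 and 668 CPM with ketamine alone, a log2 fold change of -1.37, and it was already at 829 and 812 CPM with E2. Collagens had 17 negative interactions among 26. Interferon-stimulated genes had 7 positive and 9 negative among 48, and MHC class I genes 5 positive and 3 negative among 21. MX2 and OAS1, both near 1 CPM, rose by 1.96 and 2.10 without E2 and by 0.83 and 1.17 with it. Their interactions of -1.13 and -0.93 did not pass (adjusted p = 0.0662 and 0.0826), though that of MX2 passed with upper-quartile normalization (adjusted p = 0.0469). For OAS3 and PSMB9 the interaction was 0.12 (95% interval -0.09 to 0.33) and 0.19 (-0.15 to 0.53), and neither passed. For MX1 it was 0.64 (adjusted p = 0.0397), 0.31 and not past the test without E2 replicate 2 and 1.09 without E2 replicate 1. C1R and CEBPD rose more without E2, with interactions of -0.71 and -0.65 (SE 0.132 and 0.115).

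Other lists were smaller or divided, and their shares are to be read against the 24.8% of all genes that rose and the 25.5% that fell. Counts with the GC and length correction are to be read against 18.0% of all genes higher and 17.1% lower. Among cytokines and chemokines 5 of 22 genes rose and 1 fell, IL6 and GDF15 among the rises. Of the NF-kB pathway 6 of 18 genes rose and 3 fell, where RELB and NFKBIA, a subunit and an inhibitor, rose by 0.66 and 0.54 (SE 0.152 and 0.0662) and the subunit REL fell by 0.68 (SE 0.145). In the complement list 6 of 17 genes rose and 1 fell, SERPING1, the inhibitor of C1 proteases, by 0.68 (SE 0.126) and CLU, a chaperone that blocks the terminal pathway, by 0.63 (SE 0.0398). Of p53 targets, 10 of 25 genes rose and 6 fell, and CDKN1A, an inhibitor of cyclin-dependent kinases, rose by 0.57 (SE 0.0277). For DNA replication 13 of 45 genes rose and 18 fell, TK1, the thymidine kinase, by 0.46 and RRM1, a subunit of ribonucleotide reductase, by -0.39. In the clock list 3 of 19 genes rose and 6 fell, and NR1D1, a repressor of the clock, rose by 0.55 (SE 0.102). Among matrix proteases and their inhibitors 8 of 26 genes rose and 7 fell, MMP2, a gelatinase, by 0.54 (SE 0.139). In the remaining lists 8 of 25 immediate early genes rose and 4 fell, 14 of 34 genes of BDNF, mTOR and translation control rose and 12 fell, 7 of 22 estrogen receptor and target genes rose and 8 fell, and 1 of 20 prostanoid genes rose and 2 fell. With the GC and length correction the numbers higher and lower were 4 and 3 for cytokines and chemokines, 3 and 4 for the NF-kB pathway, 7 and 4 for p53 targets, 8 and 17 for DNA replication, 7 and 4 for matrix proteases, 6 and 8 for immediate early genes, 8 and 5 for BDNF, mTOR and translation control and 4 and 6 for the estrogen list. Of 49 clustered histone genes 5 rose (3 higher and 2 lower with the correction), HIST1H1C, a linker histone, by 0.68 (SE 0.0515).

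Ketamine was also set against its metabolites at the same dose and time with E2, and both comparisons use the same E2+ketamine libraries. (2R,6R)-HNK and (2S,6S)-HNK are mirror-image forms of a compound that, unlike ketamine, has a hydroxyl group and no N-methyl group. Both libraries of (2S,6S)-HNK without E2 were closest to a library of E2+(2R,6R)-HNK, not to each other. Each E2+(2R,6R)-HNK library was closest to the other of its own group. The cause was not tested. Between E2+ketamine and E2+(2R,6R)-HNK 52.0% of genes passed the test, 25.3% higher and 26.7% lower with ketamine, and 494 passed both limits (3.09%), 203 higher (1.27%) and 291 lower (1.82%). Between E2+ketamine and E2+(2S,6S)-HNK 66.8% passed, 31.7% higher and 35.0% lower, and 899 passed both limits (5.62%), 423 higher (2.64%) and 476 lower (2.97%). The balance of higher and lower genes turned with the GC and length correction, to 4499 and 3573 against (2R,6R)-HNK and 4906 and 4016 against (2S,6S)-HNK, and with DESeq2, to 4062 and 3579 and to 5093 and 4953. MT1E was higher with ketamine by 1.34 and 2.78 (SE 0.0402 and 0.0449), and SLC30A1 by 0.95 and 2.52 (SE 0.0966 and 0.112), in the order (2R,6R)-HNK and (2S,6S)-HNK. OAS3 was higher with ketamine by 0.87 and 1.09, and MX1 by 0.97 and 1.46 (largest SE 0.164). SQSTM1 and FTL were higher by 0.88 and 0.76 than with (2R,6R)-HNK and by 1.22 and 1.14 than with (2S,6S)-HNK. HMGCS1 was lower with ketamine by 1.09 and 1.53, and COL8A1 by 1.31 and 1.28. For ASNS the differences were -0.04 (95% interval -0.11 to 0.02, adjusted p = 0.297) and -0.09 (-0.16 to -0.02, adjusted p = 0.0151). NEAT1 differed from (2R,6R)-HNK by 0.02 (95% interval -0.07 to 0.11), which did not pass, and was lower than with (2S,6S)-HNK by 0.67 (SE 0.0431). THBS1 was higher with ketamine than with either metabolite, by 0.53 and 0.54 (SE 0.0195 and 0.0195).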

How the data were processed

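RNA was sequenced from 16 libraries of HMC3 cells, made with Ovation kits, 8 samples to a lane. Per the submitters' processing notes, the authors aligned reads to hg19 with TopHat2 2.0.14 and Bowtie2 2.2.6 and counted them per gene with featureCounts 1.4.6. The methods name other aligner versions. The deposited values are raw counts from uniquely mapped, concordant pairs, not normalized, and neither the strand setting nor whether a pair was counted once is given in the sources used here. The gene table is 1 file with 25370 genes.

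edgeR 4.0.16 (R 4.3.3, limma 3.58.1) was used. filterByExpr kept 16004 genes, libraries were scaled by TMM, and a quasi-likelihood model with 8 group means was fitted to all 16 libraries, leaving 8 residual degrees of freedom. p-values were adjusted over all 16004 genes by the Benjamini-Hochberg method. The SE is the log2 fold change divided by the square root of F, and 95% intervals are from the same fit. Replicate libraries differed by more than counting noise (variance 2.94 and 4.18 times Poisson with E2 and E2+ketamine), and each library was used as a replicate. Between 65.0% and 66.9% of counts from 1 to 9 were even numbers in the 4 libraries, against about 50% of counts of 500 or more, the cause of which was not tested, and the floor covers counting error only. GC content and exon length came from the GRCh37 annotation and were known for 95.96% of tested genes. The correction is a loess offset per library (span 0.5). Promoters came from RefSeq GRCh38.p14, and MT1E and MT1F were not matched there. The edgeR and DESeq2 fits and the GC correction were tested on simulated counts. Alternatives were DESeq2 1.42.0, fits on the groups compared only, other filters and scalings, a replicate block, the GC and length correction, halved counts, and each library left out.

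Named genes were those past both limits with at least 5 CPM, the genes that the study follows, up to 4 from each list with the largest change and at least 1 CPM, and the 5 largest interactions each way. The others, among them TREM2, ISG15, SHMT2, SLC3A2, NQO1, HLA-B, B2M, ATF4, INSIG1, SLC39A10, COL7A1, MTF1, ESR2, MT1L and the interferon and stress response genes that fell, were chosen after their values were seen. The comparison, the members and the gene lists were chosen with earlier results of these data known. Some named genes are not reported here.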

Additional observations from a re-analysis of the deposited data

Results flagged for a closer look

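For these genes the effect of ketamine with E2 differed from its effect without E2 in the test of that difference (edgeR quasi-likelihood fit, p-values adjusted over 16004 genes). Each value is the log2 fold change with E2 minus that without it, and it carries the noise of 8 libraries.

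The difference was positive for SLC30A1 (1.97), MT1E (1.65), MT1F (1.49), ACTG2 (1.33), MT1X (1.3), MX1 (0.64), ASNS (0.63), SLC6A9 (0.47) and PHGDH (0.38). For the metallothioneins, SLC30A1 and ACTG2 the sign of the effect itself turned, down without E2 and up with it. For ASNS, PHGDH, SLC6A9 and MX1 both effects were rises and the rise was larger with E2. The value of MX1 no longer passed under DESeq2, with upper-quartile normalization or with counts halved, and ranged from 0.31 to 1.09 when 1 library was left out.

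The difference was negative for COL9A3 (-1.38), PTGIS (-1.35), FER1L4 (-1.34), MEGF6 (-1.34), YPEL1 (-1.32), C1R (-0.71), JAK3 (-0.70), GDF15 (-0.65), CEBPD (-0.65), EMID1 (-0.43), ZBED2 (-0.43), IRF9 (-0.40), DLG4 (-0.38), SOCS3 (-0.33), EEF2K (-0.32), IRF7 (-0.26), SIN3A (-0.22) and STAT3 (-0.18). COL9A3 and MEGF6 rose without E2 and fell with it. GDF15, CEBPD, EMID1, C1R, IRF7, IRF9 and DLG4 rose in both settings, by less with E2. ZBED2 and SIN3A fell in both settings, by more with E2. JAK3, SOCS3, EEF2K and STAT3 rose without E2 and did not pass with it. After the correction for GC content and length the values without E2 of SIN3A (-0.0016) and SOCS3 (0.05) did not pass. With E2, SOCS3 then passed as a fall (-0.23) and STAT3 as a rise (0.15). The difference between the effects for STAT3 no longer passed after the correction for GC content and length (-0.04). EMID1 no longer passed under DESeq2 or after that correction. It also did not pass without E2 replicate 1, E2+ketamine replicate 1, ketamine replicate 2 or vehicle replicate 2. Without single libraries its values ran from -0.70 to -0.20. ZBED2, at -0.48 to -0.37, did not pass without 6 of the 8 libraries in turn. GDF15 did not pass without E2 replicate 1 (-0.49) or vehicle replicate 1 (-0.53), JAK3 without E2+ketamine replicate 1 (-0.54) or vehicle replicate 2 (-0.44), and IRF7 without E2+ketamine replicate 1 (-0.17). No group of 4 or more replicate libraries exists here, so no library was examined as an outlier within its group.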

How the results depend on the processing

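For E2+ketamine against E2, 154 named genes gave 2309 values under the alternatives, of which 2230 kept their direction and their side of the threshold, 61 no longer passed, 8 newly passed and 10 turned sign. For the interaction, 38 genes gave 721 values with 667, 32, 11 and 11. The genes past both limits in E2+ketamine against E2 numbered 180, and 107 under DESeq2 on all libraries, 41 under DESeq2 on the 2 groups alone and 80 with at least 10 counts in every library. For ketamine against vehicle there were 570, and 346 with the GC and length correction. For the interaction there were 292, and 194 and 174 under DESeq2 on all libraries and on the groups alone. Against (2R,6R)-HNK 494 became 291 with DESeq2 on the groups alone and 286 with at least 10 counts, and against (2S,6S)-HNK 899 became 597 with at least 10 counts. The stricter filter tests fewer genes, and the other causes were not tested. In E2+ketamine against E2, 147 of the 180 genes had under 1 CPM.

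Replicate numbers did not pair the libraries (correlation of deviations 0.0213 between E2 and E2+ketamine). With the replicate block 174 genes passed both limits in E2+ketamine against E2, and with the block and the GC and length correction 336 did in ketamine against vehicle.

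With 1 library left out, where the lone library is assumed to vary like the other groups, 172 to 206 genes passed both limits in E2+ketamine against E2 (6807 to 7410 with no fold limit), 564 to 596 in ketamine against vehicle (8540 to 8698), 262 to 321 for the interaction (5259 to 5557), 454 to 473 against (2R,6R)-HNK (7224 to 7443) and 806 to 932 against (2S,6S)-HNK (9863 to 10020).

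With the GC and length correction, without and with the block, log2 fold changes turned for SOCS1 (-0.0526 and -0.0549), SOCS3 (-0.231 and -0.231), FER1L4 (-0.0297 and -0.0298) and ATF4 (-0.0293 and -0.0293), and the interaction of JAK2 (-0.108 and -0.105). Leaving out 1 library, SOCS1 ranged from -0.0449 (without E2 replicate 1) to 0.664 and ESR2 from -1.38 to 0.0153 (without E2+ketamine replicate 2). Interactions turned with upper-quartile normalization for JAK1 (-0.0338), EEF2 (-0.0604) and BDNF (-0.0032), and ranged without single libraries from -0.0248 to 0.374 for PSMB9, from -0.0595 to 0.229 for JAK2 and from -0.321 to 0.0473 for OAS2. That normalization also moved ketamine against vehicle from 4291 higher and 5201 lower to 5391 and 4302. The cause was not tested.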
